A study of Mus musculus with 1920 samples.

Results

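Ly6e was followed in single Lgr5-high intestinal stem cells (ISCs) of young and aged mice. It is 1 of 55471 genes in the count table, and was selected on its measured level, which stood apart between the ages in these same data, so its age difference is described here without a test. Its values were read in the 1836 sorted cells with at least 1000 detected genes, and 84 further cells fell below that. The lists of genes around it were also chosen with earlier results of these data known.

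Ly6e encodes a small protein of the Ly6/uPAR family, held on the outer face of the plasma membrane by a glycosylphosphatidylinositol (GPI) anchor. It is transcribed in many cell types, is induced by interferon and was first described as a retinoic acid-inducible gene, and in other tissues its protein is known for effects on the entry of enveloped viruses and as a receptor for syncytin-A in the placenta. In the small intestine, crypt base cells along the duodenum, jejunum and ileum keep a regional identity set by transcription factors such as Gata4, so a sort for Lgr5 can hold stem cells of several regions.

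The cells came from 3 young and 4 aged mice (called old in the labels), all carrying B6.129P2-Lgr5tm1(cre/ERT2)Cle/J, a knock-in allele in which cells transcribing Lgr5 are marked, and no treatment is named. The ages of the sequenced mice are not in the labels. Cells of the highest Lgr5 reporter signal were sorted into plates and made into full-length libraries without molecular identifiers (a Smart-seq2 method per the study, a SMARTER kit per the labels). The mouse was the replicate and cells of 1 mouse were not treated as replicates. Young mice gave 160, 370 and 376 usable cells and aged mice 189, 186, 189 and 366, with a median of 305492 counted reads and 9398 detected genes per cell. By the highest mean over 8 marker lists, 1546 cells were led by ISC markers (Lgr5, Olfm4, Ascl2 and others), as the sort label says, and 290 (15.8%) by another list, mostly Paneth (146) or enterocyte (88) markers. ISC-led cells numbered 138, 345 and 348 in young and 168, 135, 146 and 266 in aged mice. Cells led by other lists thus made up a larger share in aged mice 2 to 4 than in any young mouse, so values over all kept cells also differ in cell make-up. No cell was led by immune markers and 3, all of aged mouse 3, by stromal and endothelial markers. The mean ISC marker score was lower in aged than in young mice (7.16 ± 0.14 against 7.74 ± 0.13, SD, n = 4 and 3, log2 scale). In ISC-led cells alone Ly6e differed between ages by 1.96 in log2(CPM + 1), against 1.83 in all kept cells.

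The gene lies on the plus strand at chr15:74955051-74959905 (GRCm38, GENCODE M21), and its transcript Ly6e-201 has 4 exons, 3 of which carry the 411-base coding sequence. A processed pseudogene, Ly6e-ps1, lies on chromosome 12 and aligns to that coding sequence with 81.8% identity over 411 aligned positions, 44 of them gaps. Because a near-identical copy could draw reads from the gene, coding bases 34 to 183 are shown, with capitals at each base that is changed or missing in Ly6e-ps1.
Ly6e coding bases 34 to 183: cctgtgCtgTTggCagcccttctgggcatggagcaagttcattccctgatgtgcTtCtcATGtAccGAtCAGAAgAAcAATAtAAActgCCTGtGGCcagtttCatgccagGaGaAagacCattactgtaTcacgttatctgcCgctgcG
In this window, chosen as the 150 aligned bases with the most differences, 41 of 150 bases differed. Over the whole alignment 336 of 411 positions were identical. Ly6e-ps1 held 2 reads in the whole table against 196439 for Ly6e, so the pseudogene accounted for almost no counted reads.

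Ly6e was detected in most sorted cells of both ages, at a higher level in each aged mouse than in any young mouse. Summed over the cells of each mouse, Ly6e stood at 106, 145 and 119.7 counts per 1000000 counted reads (CPM) in young mice 1 to 3 and at 246, 504, 525 and 566 CPM in aged mice 1 to 4. The groups did not overlap, and aged mouse 1 lay nearest to the young mice. The means were 124 ± 19.9 CPM (SD, n = 3) in young and 460.4 ± 145 CPM (SD, n = 4) in aged mice, a difference of 1.83 in log2(CPM + 1). In the fit across all genes the log2 change was 1.96, which ranked 258 among 20957 genes tested. By mean CPM Ly6e ranked 290 among all genes.

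A Ly6e read was found in 86.2% (95% Wilson interval 80.1 to 90.7), 95.4% (92.8 to 97.1) and 94.7% (91.9 to 96.5) of the cells of young mice 1 to 3. In aged mice 1 to 4 the share was 92.6% (88.0 to 95.5), 97.8% (94.6 to 99.2), 98.9% (96.2 to 99.7) and 96.4% (94.0 to 97.9). These shares overlapped between the ages, and the intervals cover counting error only. When every cell was thinned to 100000 reads, which left 1732 cells, 82.2%, 93.5% and 91.4% of the cells of young mice 1 to 3 and 94.0%, 94.4%, 96.6% and 95.0% of those of aged mice 1 to 4 kept a read (means 89.0% ± 6.00 and 95.0% ± 1.14, SD, n = 3 and 4). At this equal depth, in a single random thinning, the shares did not overlap between the ages, but only just. Young mouse 2 (93.5%) and aged mouse 1 (94.0%) lay closer than the counting intervals above are wide, so no separation is read from them.

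In 2 of the aged mice most cells sat above nearly all young cells. The median CPM over cells was 68.6, 107 and 93.4 in the young mice and 146, 448, 550.2 and 579.6 in the aged mice. The highest 95th percentile of a young mouse was 455 CPM, and 1.88%, 5.14% and 2.66% of young cells lay above it. In the aged mice 17.5%, 48.9%, 54.5% and 60.4% of cells lay above it. A low tail stayed in each aged mouse, since the 10th percentile was 15.0, 30.2, 43.4 and 42.0 CPM, below the median of every young mouse.

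**Figure D1:**
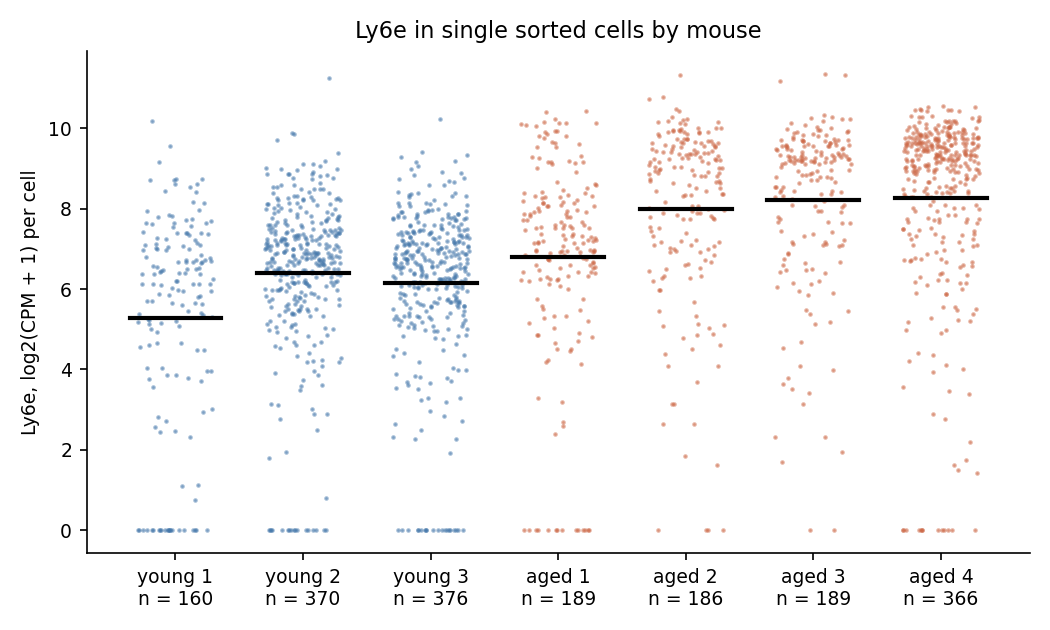
Ly6e in each kept cell on the log2(CPM + 1) scale, by mouse, with young mice in blue, aged mice in orange and the mean of each mouse as a bar. The young means lie at 5.29, 6.39 and 6.14 and the aged means at 6.79, 7.99, 8.22 and 8.26, and each aged mouse keeps a spread of low cells below a dense upper band.

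The cell names carry 5 LR codes, which were taken here as sequencing lanes, a reading made for this report. Of the 5, 3 held mice of both ages, and in each the aged mouse was higher. The mean log2(CPM + 1) over cells was 6.79 in aged mouse 1 and 6.13 in young mouse 2 on their shared lane, a difference of 0.66. Aged mouse 2 exceeded the other cells of young mouse 2 by 1.34 (7.99 against 6.66), and aged mouse 3 exceeded young mouse 1 by 2.93 (8.22 against 5.29). Aged mouse 4 and young mouse 3 had lanes of their own, so there lane and mouse cannot be told apart.

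Ly6e was also present in the sorted cells that were led by markers of differentiated lineages. Paneth-led cells, which carry the antimicrobial genes of the crypt base neighbours of ISCs, had a mean log2(CPM + 1) of 7.35, 5.59 and 7.59 in the young mice and 5.62, 7.70, 7.52 and 8.04 in the aged mice. Against the ISC-led cells of the same mouse they were higher in young mice 1 and 3 (by 2.32 and 1.51) and lower in the other 5. The mean difference was 0.02 ± 1.34 (SD, n = 7 mice, exact two-sided sign-flip permutation test p = 0.969), so no difference was detectable, though the sign turned with other list or count settings and, after scran scaling, the Paneth-led cells were higher by 1.04 (adjusted p = 0.0469, exact sign-flip test). Goblet-led cells reached 5 cells in 4 mice and differed from ISC-led cells by 0.30 ± 0.72, and enterocyte-led cells did so in 5 mice with -0.14 ± 1.45, both left untested. The enterocyte-led cells of aged mouse 4 (43 cells) stood 2.32 below its ISC-led cells. Enteroendocrine-led (5) and tuft-led (10) cells were too few to compare.

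Among ISC-led cells, Ly6e was higher in cells with more of the proximal and less of the distal regional genes. Cells of each mouse were ranked by the mean log2(CPM + 1) of a list, and Ly6e was compared between the top and bottom tertile. The proximal list holds Gata4, Onecut2 and Pdx1, transcription factors of the upper small intestine, Lct (lactase), the iron genes Cybrd1 and Slc40a1, and Adh6a, and the distal list holds Osr2, the ileal bile acid genes Fabp6 and Slc10a2, and Bex1 and Bex4. Over 7 mice Ly6e was 2.00 ± 1.08 (SD) higher in the top proximal tertile, in 7 of 7 mice (adjusted p = 0.0284, exact two-sided sign-flip permutation test, Benjamini-Hochberg over 20 contrasts). Between the top and bottom distal tertile the difference was -1.58 ± 1.30, with Ly6e lower in 6 of 7 mice (adjusted p = 0.0481, same exact test). The distal list no longer passed with log2(CPM + 10), with all cells, after scran scaling or between upper and lower 50% of cells (each adjusted p = 0.0521, same exact test), with differences from -1.64 to -1.25. By mouse, 4.51% to 35.1% of ISC-led cells held no read of the proximal list and 8.33% to 27.4% none of the distal list. In aged mouse 1 (35.1%) the bottom proximal tertile had a list mean of 0.00, so ties decided which cells it held.

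The regional contrast was wider in the aged mice. In young mice 1 to 3 the proximal contrast was 1.94, 1.06 and 0.32, and in aged mice 1 to 4 it was 2.15, 3.68, 2.32 and 2.52, so the ages did not overlap. The young mean of 1.11 stood below those of the interferon response (1.70), enterocyte (1.43) and GPI anchor (1.37) lists in the same mice, and the aged mean was 2.67. The distal contrast was -1.13, -0.47 and 0.22 in young mice and -1.66, -3.80, -2.09 and -2.13 in aged mice, again without overlap. The aged minus young difference was 1.56 for the proximal and -1.96 for the distal list, each with p = 0.0286, the smallest the exact permutation test over 35 divisions can give. Neither passed after adjustment over 21 contrasts (adjusted p = 0.300), and no other contrast came below 0.05 before adjustment. At that smallest p a contrast could pass only if many others reached it too. Ly6e was chosen on its age difference in these same mice, so these p-values are not independent of that choice. The median Ly6e reads per cell were 12.0, 35.0 and 30.0 in young and 36.0, 112, 114 and 154 in aged mice. Any effect of this on the contrasts was not tested.

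ISC-led cells were set apart by whether their proximal list mean exceeded their distal one, a division made after the contrasts were seen and given as a description, with 155 cells (10.0%) within 0.5 of the line. In the cells with the proximal list higher, Ly6e averaged 5.82, 6.67 and 6.04 on the log2(CPM + 1) scale in young mice and 8.10, 9.49, 9.08 and 9.33 in aged mice. The rest averaged 4.25, 6.15 and 6.14 in young and 6.25, 5.93, 6.08 and 6.47 in aged mice. In the proximal cells the ages lay apart by 2.82 without overlap, whereas in the rest the mice of both ages overlapped and the means differed by 0.67. That value depended on which mouse was left out. In young mouse 1, 77.1% of these cells held a Ly6e read and the median of detected genes was 7650. Without that mouse the means differed by 0.04 (6.14 in young, 6.18 in aged). Without young mouse 2 or 3 they differed by 0.99 and 0.98, and without an aged mouse by 0.57 to 0.75. The step from the other to the proximal cells was 1.57, 0.53 and -0.10 in young mice and 1.85, 3.56, 2.99 and 2.87 in aged mice. The 2 sets also differed in depth in every mouse. Median detected genes in the other cells were 7650, 9238 and 8526 in young and 8472, 9363, 8284 and 9387 in aged mice. In the proximal cells they were 9418, 10080 and 9187 in young and 9697, 10333, 9830 and 10016 in aged mice.

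In summed counts the proximal cells held 131 ± 41.1 CPM in young and 672 ± 160.4 CPM in aged mice, and the rest held 110.3 ± 21.6 and 212 ± 39.6 CPM (SD, n = 3 and 4). In these sums the ages did not overlap in either set, which shows that some of the remaining aged cells were high. Proximal cells made up 49.3%, 53.6% and 60.6% of ISC-led cells in young mice and 33.3%, 60.0%, 69.9% and 74.8% in aged mice. Aged mouse 1, with the lowest Ly6e of the aged mice, had the smallest proximal share. Which stretch of the intestine was taken from each mouse is not in the labels, and sampling and regional identity cannot be told apart here. With both sets weighted equally in each mouse, Ly6e averaged 5.85 ± 0.72 in young and 7.59 ± 0.31 in aged mice.

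**Figure D2:**
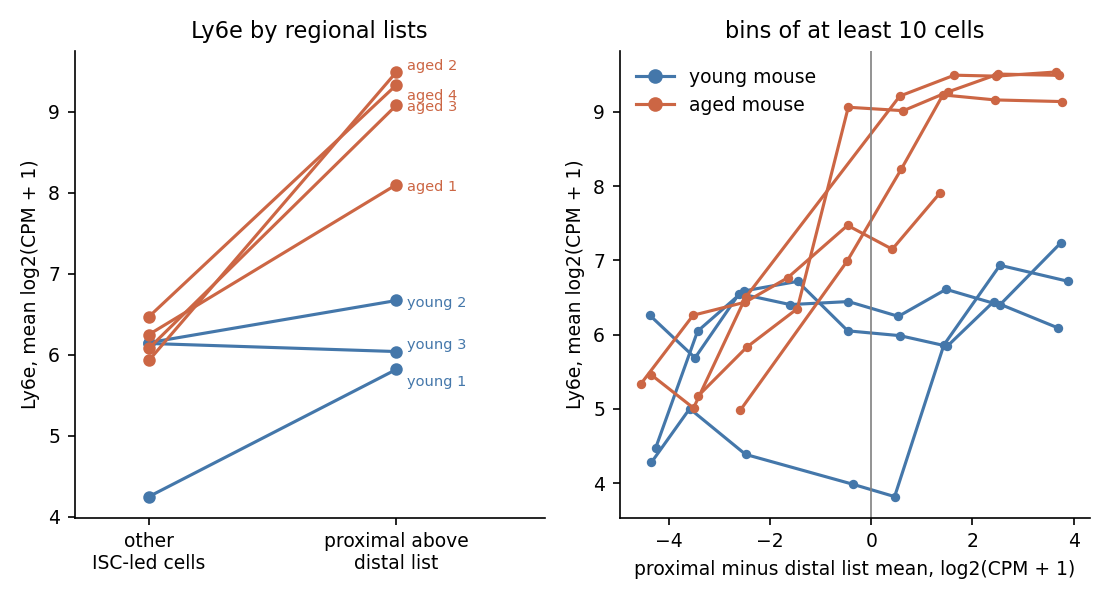
Left, mean Ly6e in log2(CPM + 1) of ISC-led cells with the proximal list mean above the distal one and of the other ISC-led cells, joined for each mouse; right, mean Ly6e over bins of the proximal minus distal list mean, for bins of at least 10 cells. The 4 aged mice (orange) start between 5.93 and 6.47 in the other cells and reach 8.10 to 9.49 in the proximal cells, and the 3 young mice (blue) stay between 4.25 and 6.67.

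Other lists moved with Ly6e in the same direction in every mouse, and so did the number of detected genes. Between tertiles of interferon response genes (Irf7, Oasl2 and others) Ly6e differed by 1.51 ± 0.40, between those of GPI anchor synthesis genes, which make and attach the anchor, by 1.58 ± 0.49, and between those of the other Ly6/uPAR family genes by 1.36 ± 0.67. The Ly6/uPAR list mean was low, at 0.25 to 0.27 in the bottom and 0.49 to 0.66 in the top tertile by mouse. Just 3 of its genes had a read in at least 10% of ISC-led cells of every mouse, so it does not stand for the whole family. Enterocyte markers gave 1.53 ± 0.55, retinoid genes 1.25 ± 0.51 and interferon receptors and signaling genes 1.21 ± 0.47. S-phase genes gave 1.04 ± 0.49, G2 and mitosis genes 0.98 ± 0.57 and immediate early genes 0.69 ± 0.55. Each of these 9 had an adjusted p of 0.0284 by the exact sign-flip test, in 7 of 7 mice.

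The ISC markers themselves gave 0.64 ± 0.40, in 6 of 7 mice (adjusted p = 0.0481, exact sign-flip test). That call was lost with log2(CPM + 10), all cells, thinned reads, scran scaling and upper against lower 50% of cells (adjusted p from 0.0670 to 0.112, exact sign-flip test), and with detected genes taken into account the difference turned to -0.16, with Ly6e higher in 2 of 7 mice. Cells with more detected genes had more Ly6e, by 1.68 ± 0.79 between tertiles of detected genes (adjusted p = 0.0284, exact sign-flip test). The top tertile held more detected genes in all 7 mice for each of these 10 lists and the proximal one, for example 10137 against 8070 for the interferon response list, while in the distal list it held fewer in 7 of 7. After the part of each list that followed detected genes was removed within each mouse, an alternative chosen after seeing the data, none of 19 lists passed. With 7 mice the sign-flip test cannot go below p = 0.0156, so whether a list passed depended on how many others came as low. Leaving aside the immune list, which most cells lacked, the lists with the same direction in 7 of 7 mice were then GPI anchor synthesis (0.59), Ly6/uPAR family (0.59), enterocyte markers (0.76) and interferon receptors and signaling (0.34), each with an adjusted p of 0.0594 (exact sign-flip test), while the interferon response list fell to 0.33 (adjusted p = 0.212, same exact test). The regional contrasts were then 1.40 and -1.53 (adjusted p = 0.0848, exact sign-flip test) and still did not overlap between the ages.

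Paneth (-0.37 ± 0.62), goblet (0.07 ± 0.75) and MHC class II (-0.20 ± 0.83) lists did not pass. For the immune, tuft, enteroendocrine and stromal lists 63.0% to 96.4% of ISC-led cells held no read of the list, so their tertiles were set largely by ties and are not read here (0.31, -0.04, -0.13 and -0.16).

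**Figure D3:**
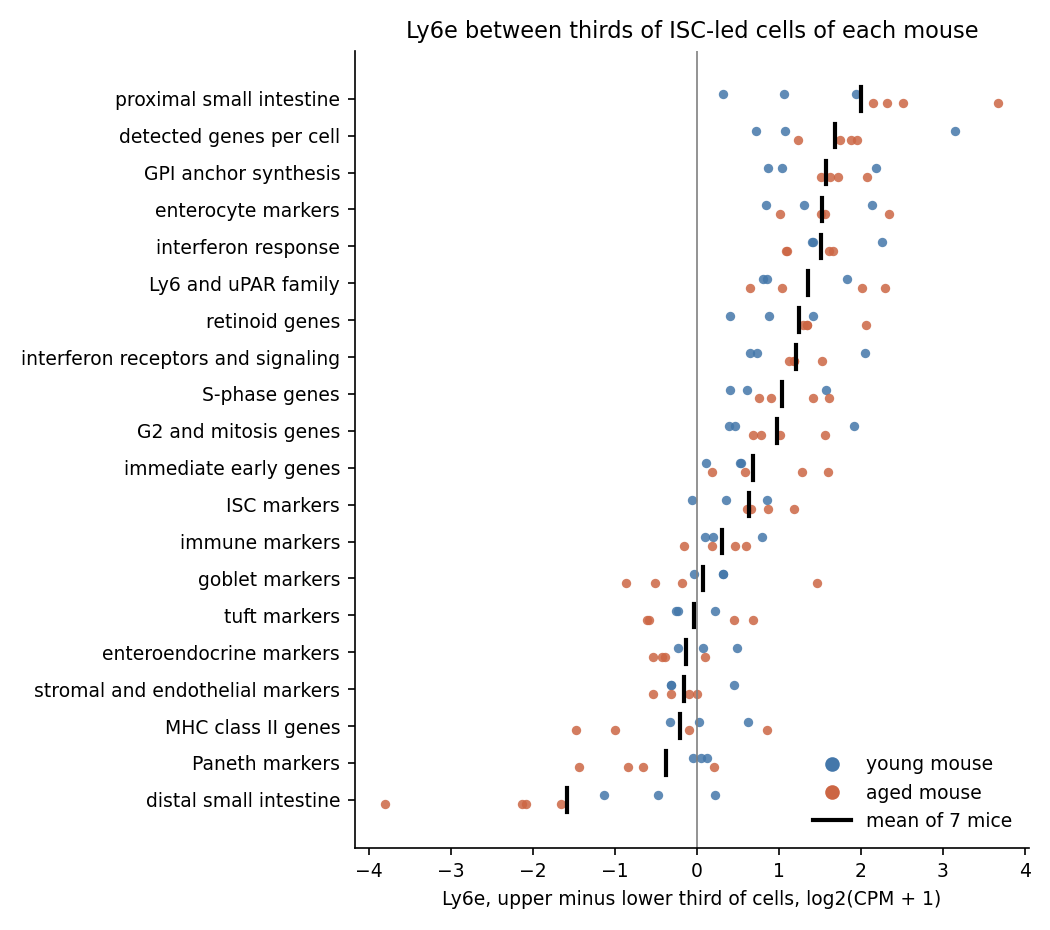
Difference in Ly6e, in log2(CPM + 1), between the ISC-led cells in the upper and the lower tertile of each list and of detected genes per cell, with 1 point per mouse (young blue, aged orange) and the mean of 7 mice as a bar. The proximal list has the highest mean (2.00) and the distal list the lowest (-1.58), and in both rows the aged points lie outside the young ones.

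Gene by gene, the regional genes Onecut2 and Gata4 were among those that varied most closely with Ly6e in the aged mice. Pearson correlations with Ly6e were taken within each mouse over 13293 genes and averaged over the mice of an age, as a description over cells that share library and depth. In the aged mice the highest was Onecut2, with 0.40, 0.74, 0.64 and 0.74 in mice 1 to 4 (mean 0.63), against 0.35, 0.19 and -0.02 in the young mice (mean 0.17). It was followed by Prap1 (mean 0.55 in aged, 0.16 in young), Fuom, which turns over fucose (0.54 and 0.18), and Gata4 (0.51 and 0.19). Also among the 10 highest were Aadac, a lipid esterase (0.47 and 0.16), Gkn3, also in the ISC marker list (0.46 and 0.12), A930009A15Rik (0.46 and 0.10), Atp5f1, an ATP synthase subunit (0.45 and 0.22), and Dmbt1, a secreted mucosal scavenger receptor (0.45 and 0.21).

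The lowest in the aged mice were Bex1 (-0.55 in aged, -0.10 in young), Tceal7 (-0.54 and -0.13), Bex4 (-0.51 and -0.07), Osr2 (-0.38 and -0.08) and Rdh1, a retinol dehydrogenase (-0.38 and -0.06), a set chosen after its values were seen. Of these genes, Onecut2 and Gata4 belong to the proximal list and Bex1, Bex4 and Osr2 to the distal one, so they repeat the regional contrast rather than add to it. Mean correlations above 0.4 were found for 18 genes in aged and 0 in young mice, and those under -0.3 for 14 and 0. Young cells held fewer Ly6e reads, as given above, and any effect of this on the correlations was not tested. With detected genes partialled out, the aged means stayed at 0.56 for Onecut2, 0.49 for Prap1 and -0.55 for Bex1. Within aged ISC-led cells of the proximal kind alone, chosen after seeing the data, they fell to 0.32, 0.30 and -0.08.

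In the young mice the highest correlations were those of broadly transcribed genes. They were Rab11a of recycling endosomes (0.33), the pyrophosphatase Ppa1 (0.32), the ribosomal protein genes Rps23 (0.32), Mrpl36 (0.32) and Rpl23 (0.31), the ATP synthase subunit Atp5a1 (0.32), the proteasome subunit Psma6 (0.31), Gm13493 (0.31), the succinate dehydrogenase subunit Sdhb (0.31) and Bcap31 of the endoplasmic reticulum (0.30). With detected genes partialled out they fell to between 0.13 (Rps23) and 0.22 (Mrpl36). Their means in aged mice ran from 0.17 for Rpl23 to 0.38 for Ppa1, and Ppa1, Atp5a1 and Sdhb ranked 25, 41 and 51 there, each with a higher mean than in young mice. The 5 lowest were Gm23935 (-0.15), Lars2 (-0.14), Tceal7 (-0.13), Gm2651 (-0.12) and Cd1d1 (-0.12). The median over all genes was 0.10 in young and 0.12 in aged mice, and 13.0% of each age's top 100 genes were shared.

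Over 20 stem cell markers the median correlation with Ly6e was 0.05 in young and 0.10 in aged mice, and 14 of 20 had a positive mean in aged mice, against 12359 of all 13293 genes. Gkn3, given above, was at 0.12 in young and 0.46 in aged mice, Lgr5 at 0.01 in young and -0.02 in aged mice, Olfm4 at 0.19 and 0.09, and Ascl2 at 0.03 and -0.01. Of 44 interferon response genes, 41 had a positive mean in aged mice, but their median (0.13 in young, 0.12 in aged) was close to that of all genes (0.10 and 0.12). Lgals3bp, a secreted glycoprotein named after its values were seen, ranked 74 among all genes in young mice (0.27) and 17 in aged mice (0.40).

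**Figure D4:**
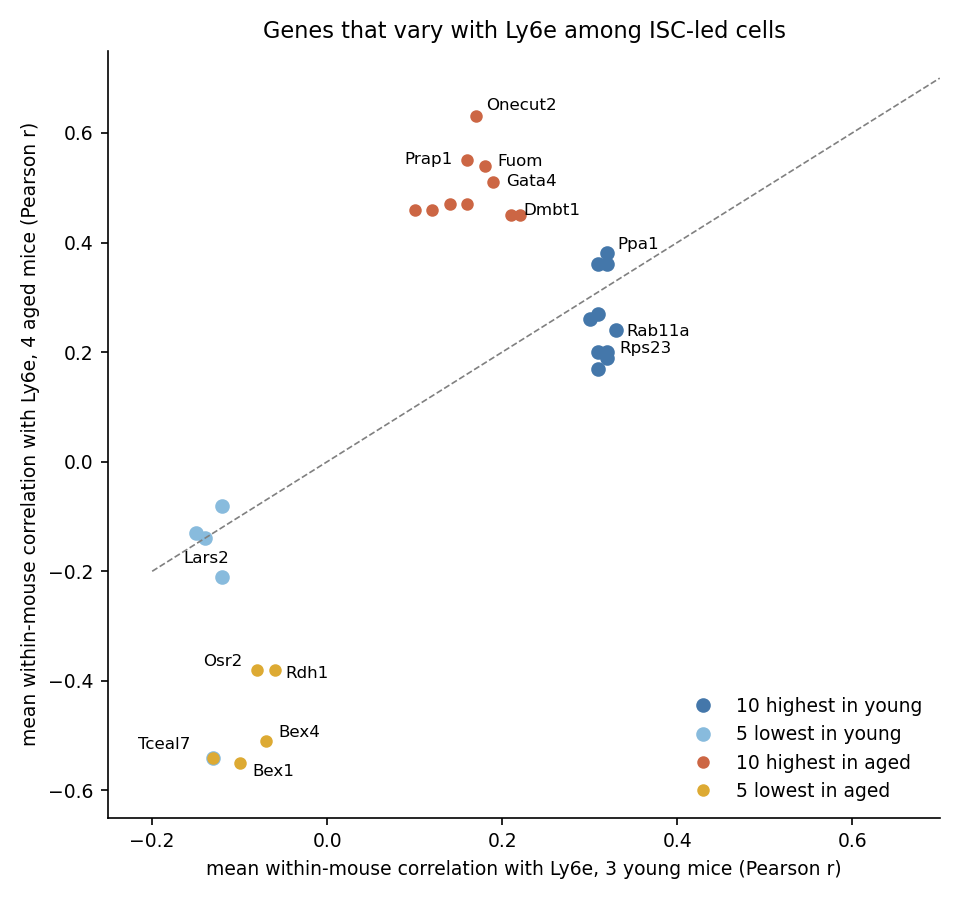
Mean within-mouse Pearson correlation with Ly6e over ISC-led cells, young mice on the horizontal and aged mice on the vertical axis, for the genes of highest and lowest mean in each age. Onecut2 (0.17 young, 0.63 aged) and Bex1 (-0.10 young, -0.55 aged) lie far from the dashed line of equal values, while the genes highest in young mice lie near it.

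Across the 7 mice, the genes whose log2(CPM + 1) of summed counts was most like that of Ly6e were Gm44421 (Pearson r = 0.988), Foxd2os (0.987), A1cf, an RNA-binding cofactor of apolipoprotein B editing (0.984), Slc40a1, the iron exporter (0.982), and Amhr2 (0.981), over 7 points that share the age difference. Foxd2os stood at 0.506, 0.744 and 0.377 CPM in young and 2.47, 7.36, 5.33 and 6.22 CPM in aged mice, and Slc40a1 at 4.61, 5.57 and 4.76 against 8.69, 15.1, 12.8 and 19.3 CPM. Both kept the order young below aged mouse 1 below the other aged mice, an order that the choice by likeness to Ly6e favours. Gm44421 and Amhr2 stayed under 0.4 CPM in every mouse. Within mice Slc40a1 was only weakly tied to Ly6e (0.11 in young, 0.13 in aged).

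The gene groups around Ly6e were compared between ages in mouse sums with edgeR's quasi-likelihood test. No gene of 20957 tested was called (0%), with 1098 (5.24%) at an unadjusted p under 0.05, and DESeq2 called 177 (0.848%). In 1240 genes (5.92%) the mice of both ages did not overlap. Of 160 list members and neighbours tested, 14 had an unadjusted p under 0.05 and DESeq2 called 5, namely Aldh1a1, Aldh1a7, Rbp2, Slc40a1 and Adgrb1, all higher in aged mice. The median log2 change over all genes was 0.01.

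Of the Ly6/uPAR family, 16 of 40 listed genes passed the filter on low counts. Of these, 13 had a positive and 3 a negative log2 change (median 0.72, or 0.19 without aged mouse 3), against 10834 positive among all 20957 genes tested. The ages did not overlap in 1 of the 16 genes, a share close to that of all genes tested (5.92%). That gene was Lypd8, a GPI-anchored protein of the gut surface, at 1085, 1003 and 962 CPM in young and 1435, 1294, 1349 and 1204 CPM in aged mice (log2 change 0.43, SE 0.14, adjusted p = 0.801). Per kilobase of exon Lypd8 (a mean level of 927 CPM per kb) stood above Ly6e (83.5 CPM per kb), and the next member, Ly6a, was at 4.19 CPM per kb. The complement inhibitor Cd59a stood at 1.57 ± 0.744 in young and 4.02 ± 2.09 CPM in aged mice (log2 change 1.41, SE 0.51, adjusted p = 0.821).

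Several positive values of the family came from aged mouse 3. Ly6a, known as Sca-1, was at 0.991, 3.06 and 3.74 CPM in young and 0.915, 1.77, 21.3 and 3.58 CPM in aged mice, and Ly6c1 and Gpihbp1, which is known from capillary endothelium, peaked in the same mouse. There 80.1% of the Ly6a reads lay in 10 cells and 20.1% in the 3 stromal-led cells. Those 3 cells held 0.295% of that mouse's Ly6e reads, and Ly6e stood at 524 CPM without them. Their own level was high, at 2512 CPM in summed counts, in shallow cells with a median of 3560 detected genes. Ly6d, Ly6f, Ly6g and Ly6l were among the members with no read in any cell.

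Beside Ly6e on chromosome 15, 9 of 26 protein-coding genes that start within 500 kb passed the filter. All 9 had a positive log2 change (median 1.12, or 0.20 without aged mouse 3), against 10834 of all 20957 genes tested. None was called by edgeR, and 1 of the 9 did not overlap between ages, against 5.92% of all genes tested. That gene was Adgrb1, an adhesion receptor and the only 1 of the 9 that DESeq2 called, at 0.0202, 0.0521 and 0.0377 CPM in young and 0.155, 0.0826, 2.90 and 0.434 CPM in aged mice (log2 change 4.56, SE 1.33, adjusted p = 0.694), with a read in 1.91% of cells. The widest changes after it belonged to Lynx1 (2.23, SE 1.31), Ly6c1 (1.87, SE 1.48) and Ly6a (1.47, SE 0.99), all with an adjusted p of 1.00 and reads in 15.0% of cells or fewer. The neighbours with reads in more cells changed least, namely Jrk (0.03, SE 0.31, 22.5% of cells) and BC025446 (0.09, SE 0.32, 20.5%). Arc, an immediate early gene, ranged from 2.97 to 22.0 CPM over the 7 mice (0.26, SE 0.62).

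**Figure D5:**
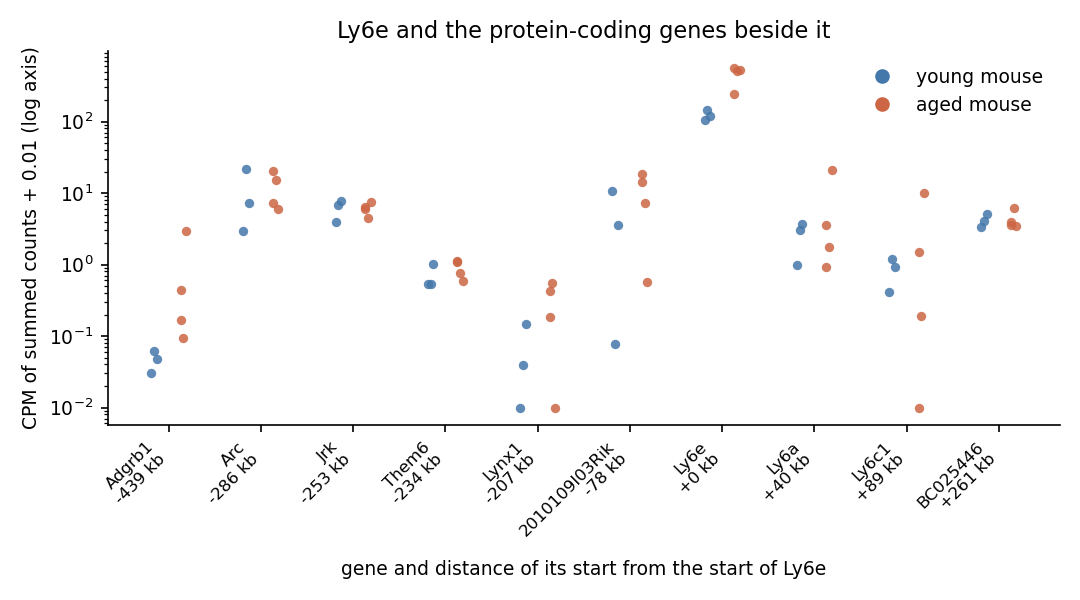
CPM of summed counts, with 0.01 added, on a log axis for Ly6e and the 9 protein-coding genes within 500 kb that passed the filter, ordered by position, with 1 point per mouse (young blue, aged orange). Ly6e is at 106 to 145 CPM in young and 246 to 566 CPM in aged mice, far above its neighbours, whose ages overlap except for Adgrb1.

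No interferon gene was called between the ages. Of 65 response genes tested, 29 had a positive and 36 a negative log2 change (median -0.08), and 5 had an unadjusted p under 0.05. The members of highest level were H2-D1 (511 ± 141 CPM in young, 512 ± 266 in aged mice), Ifitm3 (398 ± 53.8 and 540.2 ± 213), B2m (429 ± 127 and 511 ± 158), H2-K1 (347 ± 93.8 and 394 ± 162), Tapbp (312 ± 23.5 and 280.4 ± 63.9) and Psmb8 (219.6 ± 18.8 and 309.5 ± 154), and in each of them the ages overlapped. The widest changes were in low genes, Gbp2 (log2 change -2.31, SE 0.82), the antiviral sensor Oas2 (2.13, SE 0.74) and Ifit3b (-1.99, SE 0.75), each with a read in 5.45% of cells or fewer. The ages did not overlap in 4 of the 65 genes, against 5.92% of all genes tested. One of the 4 was Oasl2, read in 50.3% of cells, at 32.9 ± 4.99 CPM in young and 17.0 ± 6.49 in aged mice (-0.91, SE 0.27, edgeR adjusted p = 0.694). Of 13 receptor and signaling genes, 6 were positive and 7 negative (median -0.04), with the widest change in Socs1, which damps the signal (-1.02, SE 0.48, adjusted p = 0.969), then Il10rb (-0.45, SE 0.20) and Ifnlr1 (0.32, SE 0.39). The 7 MHC class II genes, which interferon gamma induces, had a median of 0.09, and their widest changes were in their master regulator Ciita (-0.56, SE 0.53), H2-DMb1 (0.29, SE 0.47) and H2-Aa (0.12, SE 0.62).

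Among 16 retinoid genes tested, 12 had a positive and 4 a negative change (median 0.28), none was called by edgeR, and DESeq2 called 3 higher in aged mice. Aldh1a7, of the retinal dehydrogenase family, stood at 1.98, 2.45 and 1.58 CPM in young and 4.27, 6.62, 19.2 and 16.3 CPM in aged mice (log2 change 2.61, SE 0.55, adjusted p = 0.349), and did not overlap between ages. Its relative Aldh1a1, which makes retinoic acid, stood at 9.46, 6.55 and 7.35 against 12.7, 34.1, 20.7 and 45.8 CPM (1.92, SE 0.42, adjusted p = 0.380), also without overlap. These were the 2 of 16 genes without overlap, against 5.92% of all genes tested. Rbp7, a cellular retinol carrier, had a log2 change of 2.42 (SE 0.89, adjusted p = 0.833), and Rbp2, the intestinal one, 1.90 (SE 0.57, adjusted p = 0.694). The members of highest level, Dhrs3 (82.4 ± 35.0 CPM in young, 92.9 ± 47.1 in aged), Rxrb (71.2 ± 6.90 and 69.0 ± 12.2), Rdh10 (62.4 ± 13.4 and 43.6 ± 9.63), Rdh11 (38.0 ± 6.97 and 46.2 ± 6.66), Lrat (28.6 ± 3.04 and 37.4 ± 9.65) and Rbp2 (13.3 ± 3.78 and 48.0 ± 31.5), overlapped between ages.

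Genes of GPI anchor synthesis were level, with 14 of 27 positive, a median of 0.00, none at an unadjusted p under 0.05 and the widest changes in Dpm1 (-0.54, SE 0.30), Dpm3 (0.35, SE 0.24) and the transamidase subunit Gpaa1 (0.31, SE 0.19). The regional genes that tracked Ly6e within aged mice were not called between ages. Onecut2 stood at 61.6, 79.8 and 106 CPM in young and 34.9, 93.5, 73.4 and 106 CPM in aged mice (log2 change -0.04, SE 0.35), Gata4 changed by 0.05 (SE 0.24), Bex1 by -0.15 (SE 0.40) and Osr2 by -0.18 (SE 0.26), all with an adjusted p of 1.00. The widest changes of the proximal list were in Lct (1.71, SE 0.71, adjusted p = 0.908), Slc40a1 (1.55, SE 0.30, adjusted p = 0.266; called by DESeq2) and Pdx1 (-0.33, SE 0.45), and of the distal list in Slc10a2 (1.29, SE 0.88), Fabp6 (0.61, SE 0.88) and Bex4 (-0.19, SE 0.55). The median was 0.02 over the 7 proximal and -0.15 over the 5 distal genes.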

How the data were processed

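The deposited table held raw counts per gene and cell, which the authors made with HISAT2 on GRCm38 and counted with HTSeq per the submitters' processing notes; no source used here names the annotation or strand setting. Of 55471 identifiers, 55230 matched GENCODE M21, and the unmatched ones held 0.00278% of counts. Only cells in which 1000 or more genes had a read entered the analysis. CPM was computed per cell from all counts and placed on the log2(CPM + 1) scale. Cells were assigned to the list of highest mean among 8 marker lists.

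Tests over mice were exact and two-sided: sign flips for contrasts within a mouse (7 mice, smallest p = 0.0156) and 35 divisions for age differences, with Benjamini-Hochberg adjustment. A class needed 5 cells in at least 6 mice. Correlations used genes with a read in at least 10% of ISC-led cells of each mouse. Counts summed per mouse were tested with edgeR 4.0.16 (quasi-likelihood, threshold 0.05). Each SE of a log2 change was derived from that test, as the absolute change over the square root of its F statistic. DESeq2 1.42.0, limma 3.58.1 and scran 1.30.0 served as alternatives. The tests were checked on simulated data.

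The genes named are Ly6e, the 10 highest and 5 lowest correlates in young mice, the 10 highest in aged mice (1 of them is not reported here), the 5 genes most like Ly6e over 7 mice, tested family members and neighbours, and in each other list the 3 widest changes, with the 6 highest interferon and retinoid genes. Names outside that rule are marked, or are members of the regional, interferon and stem cell lists given for comparison. The gene and its lists were chosen with earlier results of these data known. Labels separate the mice but not dissections or days, so p-values measure the spread between these 7 mice. Reads without molecular identifiers are not independent molecules. The promoter and protein sequence of Ly6e were not analysed here.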

Additional observations from a re-analysis of the deposited data

Results flagged for a closer look

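The aged minus young difference of the Ly6e contrast was flagged for both regional lists, 1.56 for the proximal and -1.96 for the distal one (each p = 0.0286, exact permutation test, the smallest it can give). Neither passed the adjustment over 21 contrasts (adjusted p = 0.300), which at this smallest p needed many contrasts to reach it. Both rest on the Ly6e values of the mice in which the gene was chosen for its age difference, so they are not independent of that choice.

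In 28 sets of 4 aged-mouse values, 2 held a mouse far from the other 3, and chance flags about 1 set in 20. Aged mouse 1 was far below the others in Ly6e of summed counts (7.95 on the log2 scale, a gap of 0.862 of the range). Aged mouse 2 was far above the others in the Ly6e contrast between tertiles of retinoid genes (2.07, a gap of 0.934 of the range).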

How the results depend on the processing

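The age difference of Ly6e (1.83 in log2 CPM) stayed within 1 SD of its value under every setting but those that took the regional sets of ISC-led cells apart, chosen after seeing the data: 2.36 in cells with the proximal list higher and 0.93 in the rest. Leaving out each mouse gave 1.71 to 2.11. The replicate block gave 1.76 and a block for the sequencing lane 1.69; mice with the same number did not vary together (r = -0.016, 0.107 and -0.110), so they share only a number.

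The Paneth-led minus ISC-led difference turned to -0.01 with log2(CPM + 10), -0.57 with centred list means and -0.13 with summed counts, passed at 1.04 with scran, and ran from -0.36 (without young mouse 1) to 0.23 when mice were left out.

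For tertiles, the ISC list no longer passed with log2(CPM + 10) (0.43), all cells (0.60), thinned reads (0.65), scran (0.44) or upper and lower 50% of cells (0.52), nor did the distal list with log2(CPM + 10) (-1.35), all cells (-1.48), scran (-1.64) or upper and lower 50% (-1.25). The Paneth list passed with thinned reads (-0.50). Signs turned for the goblet list with log2(CPM + 10) (-0.02), scran (-0.00) and upper and lower 50% (-0.04), and for the enteroendocrine (0.04) and tuft (0.10) lists with all cells and the enteroendocrine list with thinned reads (0.05). With list means residual on detected genes, chosen after seeing the data, no list passed, within the limit of the smallest p given above. The differences were proximal 1.40, distal -1.53, enterocyte 0.76, GPI anchor 0.59, Ly6/uPAR 0.59, G2 and mitosis 0.44, interferon receptors 0.34, interferon response 0.33, retinoid 0.27, immediate early 0.25, S-phase 0.23, and with turned signs ISC -0.16, goblet -0.25 and immune -0.90.

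With 6 mice the sign-flip test cannot go below p = 0.0312, and the called lists passed only when young mouse 3 was left out (adjusted p = 0.0481 against 0.0568 or more). Their ranges were 1.72 to 2.28 for the proximal, -1.88 to -1.21 for the distal, 1.47 to 1.69 for the GPI anchor, 1.40 to 1.64 for the enterocyte, 1.38 to 1.58 for the interferon response, 1.20 to 1.48 for the Ly6/uPAR, 1.12 to 1.39 for the retinoid, 1.07 to 1.30 for the interferon receptor, 0.94 to 1.15 for the S-phase, 0.82 to 1.07 for the G2 and mitosis, 0.54 to 0.79 for the immediate early and 0.55 to 0.75 for the ISC list, and 1.44 to 1.84 for detected genes. Uncalled lists that turned sign ran from -0.16 to 0.23 (goblet), -0.16 to 0.05 (tuft) and -0.37 to 0.02 (MHC class II).

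No age difference of a contrast passed under any setting. The smallest p of the exact test let a contrast pass only if many reached it. Of the list members and neighbours DESeq2 called 5 and no other setting called any. Over all genes 0 were called, against 177 with DESeq2, 2 with limma voom, 22 without the filter, 1 with the lane block and up to 8 (without aged mouse 1) with a mouse left out. The mean correlation in aged mice of the 10 genes highest in young mice moved from 0.26 to 0.20 with thinned reads, 0.15 with Spearman, 0.10 with detected genes partialled out and 0.19 in proximal cells. Depth limits the reading of single cells with 0 Ly6e reads, since 104 kept cells held fewer than 100000 reads.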

Other observations

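The 84 cells with fewer than 1000 detected genes held a median of 430.5 reads, and 11 of them had a Ly6e read, 35 Ly6e reads in all. They came mostly from young mouse 1 (32 cells) and aged mouse 4 (18 cells).

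A few cells carried much of the Ly6e count. The cells with the most Ly6e reads, 10 of each 100, held 53.7%, 35.9% and 34.7% of the Ly6e reads in young mice 1 to 3 and 46.3%, 33.4%, 43.8% and 30.2% in aged mice 1 to 4. The 2 goblet-led cells of young mouse 2 stood at 1451 CPM in summed counts, with a median of 3669 detected genes.

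MHC class II genes varied widely between mice of the same age. Their mean list score in ISC-led cells was 4.36, 6.61 and 6.86 in young and 8.01, 6.30, 6.01 and 4.34 in aged mice, and aged mouse 1, lowest in Ly6e among the aged, had the highest value.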
